A study of Homo sapiens with 10 samples.

Results

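SUCNR1 encodes the succinate receptor, a G protein-coupled receptor at the cell surface, and its level was followed here in human kidney epithelial cells after irradiation. The gene was taken as the row of the count matrix whose Ensembl identifier, ENSG00000198829.6, maps to this symbol, which is 1 of 61587 gene rows and 1 of the 19006 that held at least 200 counts over all samples and were tested. It was chosen by its fitted fall between irradiated and control samples, which was among the largest, and with the separate level of the replicate 1 pair in view. Its own change and the level of replicate 1 are therefore given as descriptions, without a test. In GRCh38 the gene lies on the plus strand of chromosome 3 at chr3:151873643-151884619 and is protein coding, with 4.18 kb of exon. None of its exon sequence lies under exons of the opposite strand (0%), although the gene sits within an intron of AADACL2-AS1, a long non-coding RNA gene on the minus strand that held 22 counts in total.

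RPTEC/TERT1 cells are human renal proximal tubular epithelial cells made immortal with telomerase (TERT). The irradiated samples (n = 5) received 10 Gy of gamma irradiation to induce senescence, and the control samples (n = 5) were mock irradiated. RNA was collected on day 7, enriched for polyA and sequenced in bulk, so fewer cells of a type and less RNA per cell cannot be told apart. All 10 samples are the same cell line and carry the same TERT transgene, and replicates are numbered 1 to 5 in each group. The total per sample ran from 78081911 to 131555873 counts in the control group and from 66269311 to 101594948 counts in the irradiated group. Levels are given as CPM, the counts per 1000000 after TMM scaling of each sample's total.

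Succinate is an intermediate of the tricarboxylic acid (TCA) cycle, formed by succinyl-CoA synthetase and oxidised in mitochondria by succinate dehydrogenase, and it leaves cells when it accumulates. Outside the cell it acts as the ligand of SUCNR1, which couples to G proteins of the Gi and Gq families and is related in sequence to the P2Y nucleotide receptors. In the kidney the receptor is known from the tubular epithelium and from the macula densa, where its activation is linked to prostaglandin and nitric oxide production.

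The upstream sequence of SUCNR1 is shown because it lies next to the start of the gene whose level fell. No binding or chromatin data were analysed here, and regulatory activity of the window in these cells was not tested. These are the 250 bases before the RefSeq start in GRCh38.p14, on the plus strand at chr3:151873393-151873642, with matches to the octamer ATGCAAAT, the motif bound by POU-family factors, in capitals.
SUCNR1 upstream: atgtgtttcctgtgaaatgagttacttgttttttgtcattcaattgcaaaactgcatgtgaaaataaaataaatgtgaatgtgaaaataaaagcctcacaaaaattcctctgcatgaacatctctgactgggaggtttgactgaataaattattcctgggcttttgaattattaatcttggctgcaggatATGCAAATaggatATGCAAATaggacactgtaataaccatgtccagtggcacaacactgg
The octamer was found at 2 places on the plus strand, from 60 to 53 and from 47 to 40 bases before the start. Of 35116 promoters searched over the same length and on both strands, 1.63% held the octamer and 0.0370% held it at 2 or more places. The sequence had a GC content of 35.2%, against a median of 58.0% over these promoters, 5.67% of which were lower. It held 0 CG dinucleotides, where the median promoter held 11. No match was found for TATAAA (present in 10.7% of promoters), the p53 half-site (5.57%), the hypoxia response core ACGTG (18.5%) or the HNF1 consensus (0.0057%). The motifs were chosen after the sequence had been seen, and a match or its absence describes only these letters in this window.

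Irradiated replicate 1 stood apart from the rest of its group in SUCNR1 level, and group values are therefore given with and without replicate 1. In control samples SUCNR1 reached 71.9 CPM in replicate 1, 15.7 in replicate 2, 8.06 in replicate 3, 45.0 in replicate 4 and 31.5 in replicate 5, from counts of 5881, 2199, 809, 4849 and 3746. In irradiated samples it was 16.2 CPM in replicate 1, 1.81 in replicate 2, 0.572 in replicate 3, 0.893 in replicate 4 and 1.10 in replicate 5, from counts of 1605, 121, 53, 82 and 97. Replicate 1 was the highest sample of each group, and the groups overlapped because irradiated replicate 1 lay above control replicates 2 and 3. All other irradiated samples lay below every control sample.

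**Figure D1:**
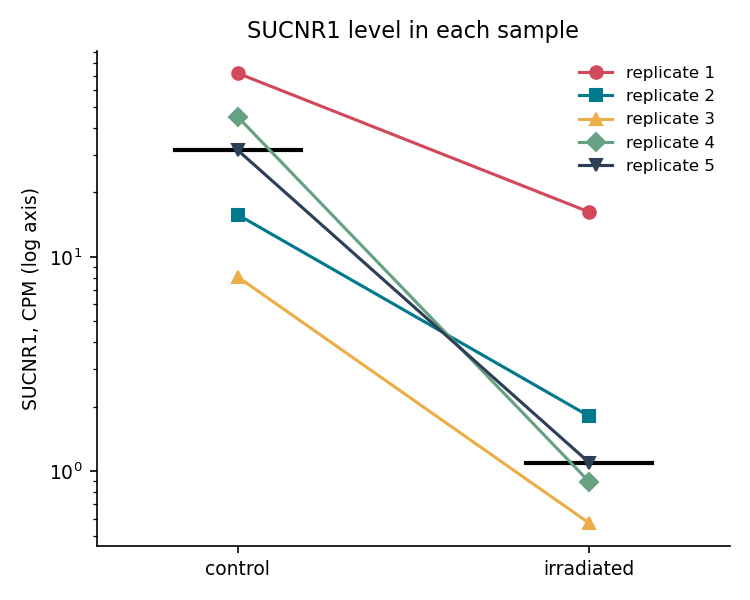
SUCNR1 level in CPM on a log axis in each control and irradiated sample, with lines joining samples of the same replicate number and a black bar at each group's median. Every line falls, and replicate 1 is the highest point of both groups, at 71.9 CPM in control and 16.2 CPM in irradiated cells.

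SUCNR1 was lower after irradiation in 5 of 5 pairs. The control level exceeded the irradiated level 4.44-fold in replicate 1, 8.71-fold in replicate 2, 14.1-fold in replicate 3, 50.4-fold in replicate 4 and 28.7-fold in replicate 5. The fall was smallest in replicate 1 and largest in replicate 4, and its direction was shared by every pair. Control samples had a mean of 34.4 ± 25.4 CPM (SD, n = 5) and a median of 31.5, and irradiated samples a mean of 4.11 ± 6.77 CPM (SD, n = 5) and a median of 1.10. Without replicate 1 the means were 25.1 ± 16.5 CPM in control and 1.09 ± 0.523 CPM in irradiated samples (SD, n = 4). The SD of the irradiated group thus exceeded its mean with replicate 1 and not without it.

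With replicate number as a block, the fitted log2 fold change of SUCNR1 was -3.81 with a standard error of 0.50, the eighth lowest of 19006 genes (rank 8). Without replicate 1 the fitted value was -4.37 and rank 1 of 18237 genes, and without the block it was -3.05 with a standard error of 0.93 and rank 24. Among the 3039 genes called lower with a mean log2 CPM of at least 1 and a fall in all 5 pairs, SUCNR1 held rank 2. SEMA5B, a transmembrane semaphorin, held rank 1 with a log2 fold change of -4.10 (SE 0.56) and went from a mean of 10.8 to 0.629 CPM. BBOX1, the last enzyme of carnitine synthesis, held rank 3 with -3.73 (SE 0.30) and went from 50.7 to 4.29 CPM. CXCL14, a chemokine, held rank 4 with -3.50 (SE 0.20) and went from 1160 to 106.1 CPM. Neighbouring values in this order from SEMA5B to CXCL14 differed by less than the larger of their standard errors, and the standard error of SUCNR1 was larger than that of BBOX1 or CXCL14. Over all tested genes 23.9% were called higher and 22.7% lower at an adjusted p-value under 0.05, and 5.26% and 4.06% were called with a change of more than 2-fold.

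The separate level of replicate 1 was among the values the gene was chosen with, and its ranks describe it without supporting anything. On the log2 CPM scale irradiated replicate 1 exceeded the median of irradiated replicates 2 to 5 by 4.01 for SUCNR1, rank 1 of 19006 genes. The median gap was 0.004 over all tested genes and 0.20 over the 771 genes that fell by more than 2-fold. In control samples, replicate 1 exceeded the median of replicates 2 to 5 by 1.69, which was rank 25 of 19006 and rank 11 of the 771. In control cells replicate 4, at 45.0 CPM, lay between replicate 1 and the others.

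**Figure D2:**
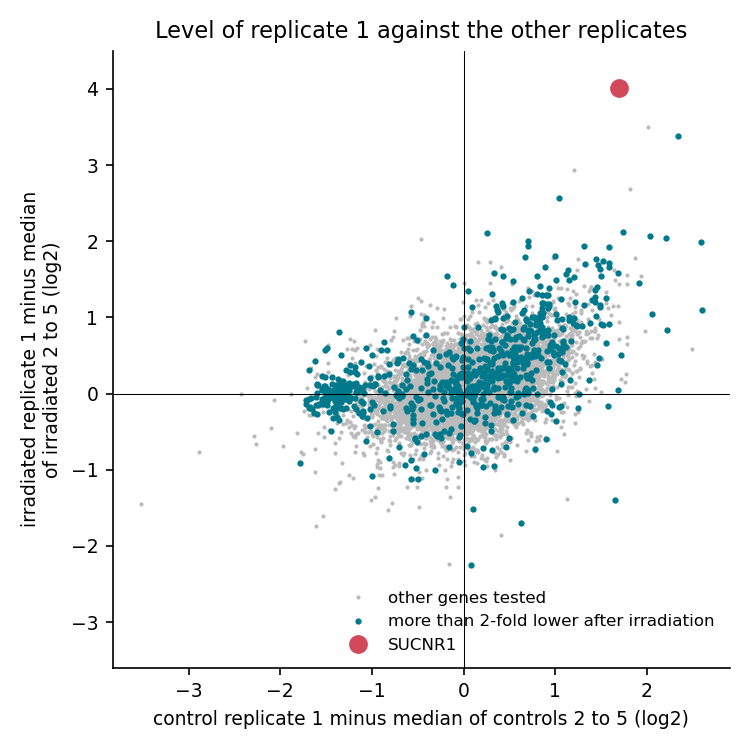
For each tested gene, the log2 CPM of replicate 1 minus the median of replicates 2 to 5, in control samples on the horizontal axis and in irradiated samples on the vertical axis, with genes more than 2-fold lower after irradiation in blue and SUCNR1 in red. SUCNR1 lies at 1.69 and 4.01 and is the highest point on the vertical axis.

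SUCNR1 also varied widely among controls. The SD of its log2 CPM over the 5 control samples was 1.25, rank 36 of 19006 genes, against a median of 0.197. Among the 4957 genes whose mean control level lay within 1 log2 unit of that of SUCNR1, it had the largest SD (rank 1, median 0.140). Over irradiated replicates 2 to 5 its SD was 0.674, rank 471, against a median of 0.154. These 4 samples held 53 to 121 counts of the gene each, where the controls held 809 to 5881.

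Replicates also differed in proliferation genes and in p53 target genes, and the order differed from that of SUCNR1. The mean log2 CPM of 20 cell cycle genes was 4.26 in control replicate 1, 5.47 in replicate 2, 4.20 in replicate 3, 5.50 in replicate 4 and 5.43 in replicate 5. In irradiated samples it was 3.69, 3.41, 3.83, 3.83 and 3.63 in the same order. Control replicates 1 and 3 were the lowest for this list and were the highest and the lowest control for SUCNR1. The mean log2 CPM of 22 p53 target genes was 6.12 in irradiated replicate 1, 6.34 in replicate 2, 6.14 in replicate 3, 6.34 in replicate 4 and 6.34 in replicate 5, against 4.88 to 5.13 in controls. CDKN1A, the p21 inhibitor of cyclin-dependent kinases, was at 584.4 CPM in irradiated replicate 1 and between 699.8 and 768.4 CPM in the other irradiated samples. Irradiated replicate 1 thus had the lowest p53 target and CDKN1A levels of its group, and both remained above every control. The part of these differences in the SUCNR1 level of replicate 1 was not tested.

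Genes that act on the ligand were examined next. Of 31 genes that make, use or carry succinate or belong to the rest of the TCA cycle, 28 were tested, of which 2 were called higher (7.14%, against 23.9% of all tested genes) and 9 lower (32.1%, against 22.7%). The median log2 fold change of the list was -0.08, against -0.01 over all genes. With scaling by library size only, 14 members were called lower.

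Of 9 tested genes that make succinate, 2 were called lower (22.2%, against 22.7% of all tested genes). SUCLG1, the alpha subunit of succinyl-CoA synthetase, went from 60.7 ± 6.60 to 40.7 ± 1.72 CPM (SD, n = 5; log2 fold change -0.57, SE 0.06, edgeR adjusted p = 0.000316). OXCT1, which moves coenzyme A from succinyl-CoA to acetoacetate and so releases succinate, went from 26.3 ± 5.28 to 16.6 ± 0.931 CPM (log2 fold change -0.65, SE 0.09, edgeR adjusted p = 0.00105). For both genes each irradiated sample lay below every control, a trait whose share over all tested genes is not given here. Of 8 tested genes that use succinate, the subunits and assembly factors of succinate dehydrogenase, 1 was called higher and 2 lower. These shares were 12.5% and 25.0%, against 23.9% and 22.7% of all tested genes. SDHA, the subunit that binds succinate, went from 12.8 ± 1.82 to 18.4 ± 0.797 CPM (log2 fold change 0.53, SE 0.08, edgeR adjusted p = 0.00149), a value that is uncertain because SDHA has near-identical pseudogene copies. The iron-sulphur subunit SDHB had a log2 fold change of -0.28 (SE 0.05, edgeR adjusted p = 0.00348) and the membrane anchor SDHD of -0.45 (SE 0.10, edgeR adjusted p = 0.00654). SDHC, the other membrane anchor, was the list member with the highest level per kb of exon as a mean of both groups. It had 84.8 ± 9.16 CPM in control and 82.8 ± 4.63 CPM in irradiated samples (log2 fold change -0.03, SE 0.04, edgeR adjusted p = 0.583). Among the called subunits of this complex SDHA alone was higher. As its value is uncertain, a difference in direction between the subunits is not settled.

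Of 8 tested genes of the rest of the TCA cycle, 5 were called lower (62.5%, against 22.7% of all tested genes). IDH2, the mitochondrial NADP-dependent isocitrate dehydrogenase, was at 118.9, 104.0, 196.7, 105.9 and 111.2 CPM in control replicates 1 to 5 and at 61.9, 64.3, 71.6, 53.1 and 55.2 CPM in irradiated replicates 1 to 5. All irradiated samples were lower than all controls, and control replicate 3 was far above the other controls. The log2 fold change was -1.02 (SE 0.10, edgeR adjusted p = 0.000163), so that IDH2 was the only member of this list called with more than a 2-fold change. The 2-fold margin was passed narrowly, and with the high value of control replicate 3 included. FH, fumarase, went from 71.9 ± 6.51 to 49.7 ± 2.06 CPM (SD, n = 5; log2 fold change -0.53, SE 0.06, edgeR adjusted p = 0.000249). MDH2, the mitochondrial malate dehydrogenase, went from 142.2 ± 17.4 to 123.8 ± 7.73 CPM (log2 fold change -0.20, SE 0.05, edgeR adjusted p = 0.0100; 0.0729 without the replicate block). The isocitrate dehydrogenase subunit IDH3A, of whose exons 38.8% lie under the opposite strand, was also called lower (log2 fold change -0.34), though not without replicate 5.

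Of the succinate carriers, 3 of 5 were tested. By edgeR 1 was called higher (33.3%, against 23.9% of all tested genes) and 0 lower (against 22.7%). SLC16A1, the monocarboxylate transporter MCT1, rose from 81.2 ± 11.2 to 123.0 ± 17.4 CPM (SD, n = 5; log2 fold change 0.60, SE 0.07, edgeR adjusted p = 0.000362). The sodium-coupled dicarboxylate transporter SLC13A3 had a log2 fold change of -0.38 (edgeR adjusted p = 0.118) and the mitochondrial dicarboxylate carrier SLC25A10 of 0.14 (edgeR adjusted p = 0.324). SLC13A2 and SLC13A5, the other sodium-coupled carriers, held 4 counts and 1 count over all samples. ACOD1, which makes the succinate dehydrogenase inhibitor itaconate, also held 1 count. The called members of these 31 genes moved by at most 1.02 on the log2 scale. SUCNR1 had -3.81, but it was chosen by that value, so the contrast follows from the choice.

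**Figure D3:**
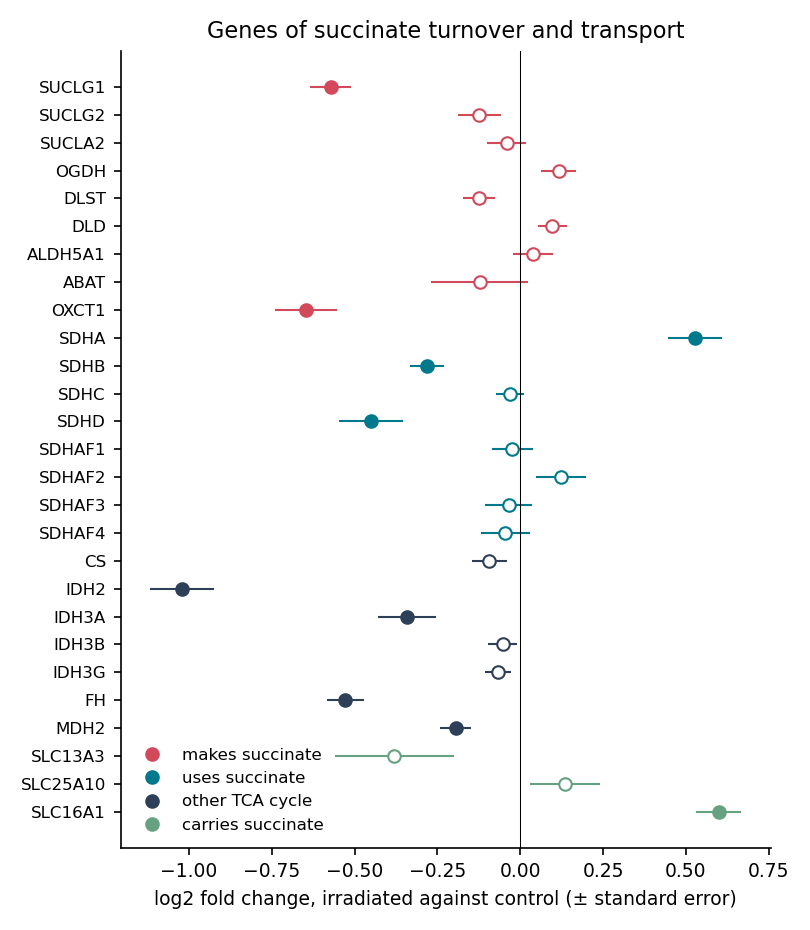
Fitted log2 fold change of irradiated against control samples with its standard error for 27 of the 28 tested genes that make, use or carry succinate or belong to the rest of the TCA cycle, coloured by role, with filled points for an adjusted p-value under 0.05. Filled points lie between -1.02 for IDH2 and 0.60 for SLC16A1, and 8 of the 10 are below 0 (1 further member called lower is not shown).

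Few receptors related to SUCNR1 were detected. Of 26 receptors of the P2Y group or for other metabolites, 8 were tested, of which 2 were called higher (25.0%, against 23.9% of all tested genes) and 3 lower (37.5%, against 22.7%), with a median log2 fold change of -0.24. Per kb of exon the control level of SUCNR1 was 8.24 CPM, against 2.44 for P2RY6, 1.50 for P2RY11 and 0.897 for CASR, the receptors with the highest levels of this list. After irradiation SUCNR1 was at a mean of 0.984 CPM per kb, which rests on replicate 1 at 3.87, and replicates 2 to 5 lay between 0.137 and 0.432. The receptor for 2-oxoglutarate, OXGR1, the closest of these to SUCNR1 in its kind of ligand, held 1 count over all samples. The P2Y receptor genes that lie near SUCNR1 were also at or close to 0, with 13 counts for P2RY1, 7 for P2RY12, 1 for P2RY13, 2 for P2RY14 and 1 for GPR171.

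CASR, the calcium-sensing receptor, was the only receptor of this list called with more than a 2-fold change. It was at 19.6, 11.2, 11.4, 4.31 and 7.37 CPM in control replicates 1 to 5 and at 2.32, 4.15, 1.63, 1.19 and 1.91 CPM in irradiated replicates 1 to 5. The groups did not overlap, replicate 1 was the highest control, and replicate 2 was the highest irradiated sample. The log2 fold change was -2.23 (SE 0.24, edgeR adjusted p = 0.000309), lower in 5 of 5 pairs. P2RY2, a receptor for ATP and UTP, rose from a mean of 4.10 to 7.61 CPM (log2 fold change 0.97, SE 0.19, edgeR adjusted p = 0.00416). P2RY6, the UDP receptor, was at 26.3 ± 6.86 CPM in control and 23.1 ± 5.57 CPM in irradiated samples (SD, n = 5; log2 fold change -0.19, SE 0.17, edgeR adjusted p = 0.405). The ATP receptor P2RY11 had a log2 fold change of 0.29 (SE 0.11, edgeR adjusted p = 0.0593). The other calls were on genes of low level, the lactate receptor HCAR1 (log2 fold change 0.97, edgeR adjusted p = 0.0304), GPR17 (-0.97, edgeR adjusted p = 0.0183) and the bile acid receptor GPBAR1 (-0.85, edgeR adjusted p = 0.0219). HCAR1 was not called by DESeq2 (adjusted p = 0.0550) or without the block, and GPR17 lost its call without the block or without replicate 3, 4 or 5 and GPBAR1 without replicate 1, 2, 4 or 5.

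Genes for transducers of the receptor were called in both directions, as were all tested genes. Of 44 genes for Gi and Gq subunits, phospholipase C, adenylyl cyclases, arrestins, receptor kinases and regulators of G protein signalling, 33 were tested, of which 10 were called higher (30.3%, against 23.9% of all tested genes) and 11 lower (33.3%, against 22.7%), with a median log2 fold change of 0.05. GNAI2, the Gi subunit with the highest level per kb of the list, was at a mean of 276.9 CPM in control and 346.1 CPM in irradiated samples (log2 fold change 0.32, SE 0.06, edgeR adjusted p = 0.00267). The Gq subunit GNA11 had a log2 fold change of 0.05 (edgeR adjusted p = 0.329) and GNAQ of 0.22 (edgeR adjusted p = 0.00664). GNAI2, GNA11 and GNAQ were thus present in irradiated cells at means no lower than in controls.

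Changes of more than 2-fold were called for 4 of the 33, where 5.26% of all tested genes were called higher and 4.06% lower by this margin. GNAZ, a Gi-family subunit, fell from 7.95 ± 1.63 to 2.93 ± 0.769 CPM (SD, n = 5; log2 fold change -1.45, SE 0.09, edgeR adjusted p = 3.16e-05). PLCB1, a member of the phospholipase C beta family that Gq activates, fell from 21.1 ± 4.54 to 8.01 ± 3.38 CPM (log2 fold change -1.46, SE 0.10, edgeR adjusted p = 4.2e-05). GRK5, a kinase that desensitises receptors, rose from 1.51 ± 0.157 to 3.17 ± 0.564 CPM (log2 fold change 1.05, SE 0.14, edgeR adjusted p = 0.000854). For these 3 genes the groups did not overlap, a trait whose share over all tested genes is not given here. Of the other members of the PLCB1 family, PLCB4 was the highest per kb of exon as a mean of both groups. It was at a mean of 311.7 CPM in control and 299.6 CPM in irradiated samples (log2 fold change -0.05, edgeR adjusted p = 0.370). PLCB3 was called higher, from 57.0 to 68.7 CPM (log2 fold change 0.27, edgeR adjusted p = 0.0160), though not without replicate 1. GRK3, a related kinase, fell from 1.01 ± 0.540 to 0.473 ± 0.144 CPM (log2 fold change -1.02, SE 0.32, edgeR adjusted p = 0.0334), a call that did not hold with replicate 1, 3, 4 or 5 left out. The arrestin ARRB2, which binds activated receptors, was at a mean of 24.0 CPM in control and 13.4 CPM in irradiated samples (log2 fold change -0.84, edgeR adjusted p = 4.58e-05), and ARRB1 had a log2 fold change of 0.39 (edgeR adjusted p = 0.00214).

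The known outputs of the receptor were followed through the genes that make them. Of 11 genes for prostaglandin synthesis, nitric oxide synthesis and blood pressure control, 7 were tested, of which 3 were called higher (42.9%, against 23.9% of all tested genes) and 0 lower by edgeR or DESeq2 (against 22.7%), and 0 were lower at an unadjusted p-value under 0.05. With 7 genes, these shares say little about the list as a whole. NOS1, the neuronal nitric oxide synthase that marks the macula densa, was at 76.9, 122.0, 95.7, 117.1 and 118.3 CPM in control replicates 1 to 5 and at 191.8, 237.5, 291.0, 261.4 and 260.6 CPM in irradiated replicates 1 to 5. Every irradiated sample exceeded every control, and replicate 1 was the lowest sample of both groups. The log2 fold change was 1.24 (SE 0.09, edgeR adjusted p = 5.17e-05). PTGS1, the constitutive cyclooxygenase, rose from 9.53 ± 3.74 to 21.2 ± 4.39 CPM (SD, n = 5; log2 fold change 1.22, SE 0.13, edgeR adjusted p = 0.000307). ATP6AP2, an accessory protein of the vacuolar proton pump, went from a mean of 114.9 to 133.3 CPM (log2 fold change 0.22, SE 0.05, edgeR adjusted p = 0.00645). The inducible cyclooxygenase PTGS2 held 19 counts over all samples, NOS2 22 and NOS3 14.

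Genes next to SUCNR1 on chromosome 3 were compared with it. Of 35 genes lying within 1000000 bases, 10 were at 0 in every sample and 4 were tested, all of them within 500000 bases, of which 1 was called higher and 3 lower (against 23.9% and 22.7% of all tested genes). MED12L, a Mediator subunit gene at chr3:151085286-151437072, whose introns hold several of the P2Y receptor genes, rose from 2.01 ± 0.504 to 3.16 ± 0.231 CPM (SD, n = 5; log2 fold change 0.68, SE 0.17, edgeR adjusted p = 0.0139). IGSF10, an immunoglobulin superfamily gene 412582 bases away, fell from 3.88 ± 1.49 to 1.58 ± 0.332 CPM (log2 fold change -1.23, SE 0.19, edgeR adjusted p = 0.0016). MBNL1, a splicing regulator 359209 bases away on the other side, fell from a mean of 79.0 to 66.8 CPM (log2 fold change -0.23, SE 0.06, edgeR adjusted p = 0.0116), a call lost without the replicate block (adjusted p = 0.0563) and without replicate 5 (0.0536). Its antisense gene MBNL1-AS1 had a log2 fold change of -0.35 (edgeR adjusted p = 0.0456), a call lost with DESeq2 (adjusted p = 0.227), with either other filter, without the block and with any replicate left out. AADAC and AADACL2, the protein-coding genes closest to SUCNR1, held 5 and 11 counts over all samples. The fitted changes of the tested neighbours were smaller than that of SUCNR1, which follows from its choice as one of the largest falls.

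The label of the cells was checked against markers of nephron segments. Of 14 proximal tubule markers, 8 were tested, of which 2 were called higher (25.0%, against 23.9% of all tested genes) and 1 lower (12.5%, against 22.7%), and their summed level was 789.5 to 930.1 CPM in control and 1060 to 1537 CPM in irradiated samples. PAX8, a kidney epithelial transcription factor, was the most abundant, at means of 533.0 CPM in control and 594.4 CPM in irradiated samples. The brush border peptidase ANPEP followed at 247.8 and 295.8 CPM, and the sum rests largely on PAX8 and ANPEP. CDH6, a cadherin of the proximal tubule, rose from 37.7 ± 9.28 to 246.2 ± 59.7 CPM (SD, n = 5; log2 fold change 2.70, SE 0.14, edgeR adjusted p = 2.13e-05), and the transporter SLC17A3 rose from 21.6 ± 11.3 to 160.4 ± 69.9 CPM (log2 fold change 2.93, SE 0.21, edgeR adjusted p = 5.56e-05). Low to moderate levels were found for CUBN, the endocytic receptor cubilin (4.37 CPM in control and 4.76 CPM in irradiated samples), the peptidase GGT1 (10.0 and 12.5 CPM) and the water channel AQP1 (1.82 and 1.19 CPM, called lower). Other markers of the differentiated proximal tubule were near 0, with 17 counts over all samples for the endocytic receptor LRP2, 12 for the transcription factor HNF4A, 86 for the phosphate transporter SLC34A1, 1 for SLC22A6 and 2 for SLC22A8. The label is therefore met by part of the list only.

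Markers of the thick ascending limb and macula densa, a segment where SUCNR1 is known, were present in both groups. Of 8 markers, 6 were tested, of which 4 were called lower (66.7%, against 22.7% of all tested genes) and 2 higher (33.3%, against 23.9%), with a median log2 fold change of -1.10. UMOD, the defining product of the thick ascending limb, was at 0 in every sample, and PTGER3 held 37 counts. The most abundant was CLDN16, a tight junction protein, with 375.0 ± 65.4 CPM in control and 280.2 ± 23.5 CPM in irradiated samples (SD, n = 5; log2 fold change -0.41, SE 0.06, edgeR adjusted p = 0.00122). The summed level of the 8 genes was 730.9, 1127, 791.3, 615.6 and 759.9 CPM in control replicates 1 to 5 and 555.8, 744.0, 640.3, 564.4 and 586.7 CPM in irradiated replicates 1 to 5. The sum was lower in the irradiated sample of each pair, and replicate 2, not replicate 1, was highest in both groups.

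The 3 ion transport and protease genes of this list fell by more than 2-fold. KCNJ1, the potassium channel ROMK, was at 85.4, 137.3, 97.4, 63.9 and 88.5 CPM in control replicates 1 to 5 and at 25.7, 39.7, 8.61, 6.98 and 10.7 CPM in irradiated replicates 1 to 5. The groups did not overlap, and the log2 fold change was -2.64 (SE 0.29, edgeR adjusted p = 0.00031). PAPPA2, a protease of the macula densa, was at 55.3, 107.2, 19.6, 28.8 and 40.4 CPM in control replicates 1 to 5 and at 17.1, 17.6, 1.60, 4.28 and 4.60 CPM in irradiated replicates 1 to 5. As for SUCNR1, control replicate 3 was the lowest control and irradiated replicate 3 the lowest of all samples, and the log2 fold change was -2.72 (SE 0.24, edgeR adjusted p = 0.000126). SLC12A1, the cotransporter NKCC2, was at 149.1, 399.5, 99.9, 108.6 and 134.3 CPM in control replicates 1 to 5 and at 46.4, 170.9, 17.3, 31.9 and 38.1 CPM in irradiated replicates 1 to 5. It was lower in 5 of 5 pairs (log2 fold change -1.80, SE 0.16, edgeR adjusted p = 0.000121), the groups overlapped through replicate 2, and without the replicate block the adjusted p was 0.0594. ROBO2, an axon guidance receptor, rose from a mean of 0.821 to 1.27 CPM (log2 fold change 0.66, SE 0.13, edgeR adjusted p = 0.00479; 0.0535 without the block), as NOS1 did.

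**Figure D4:**
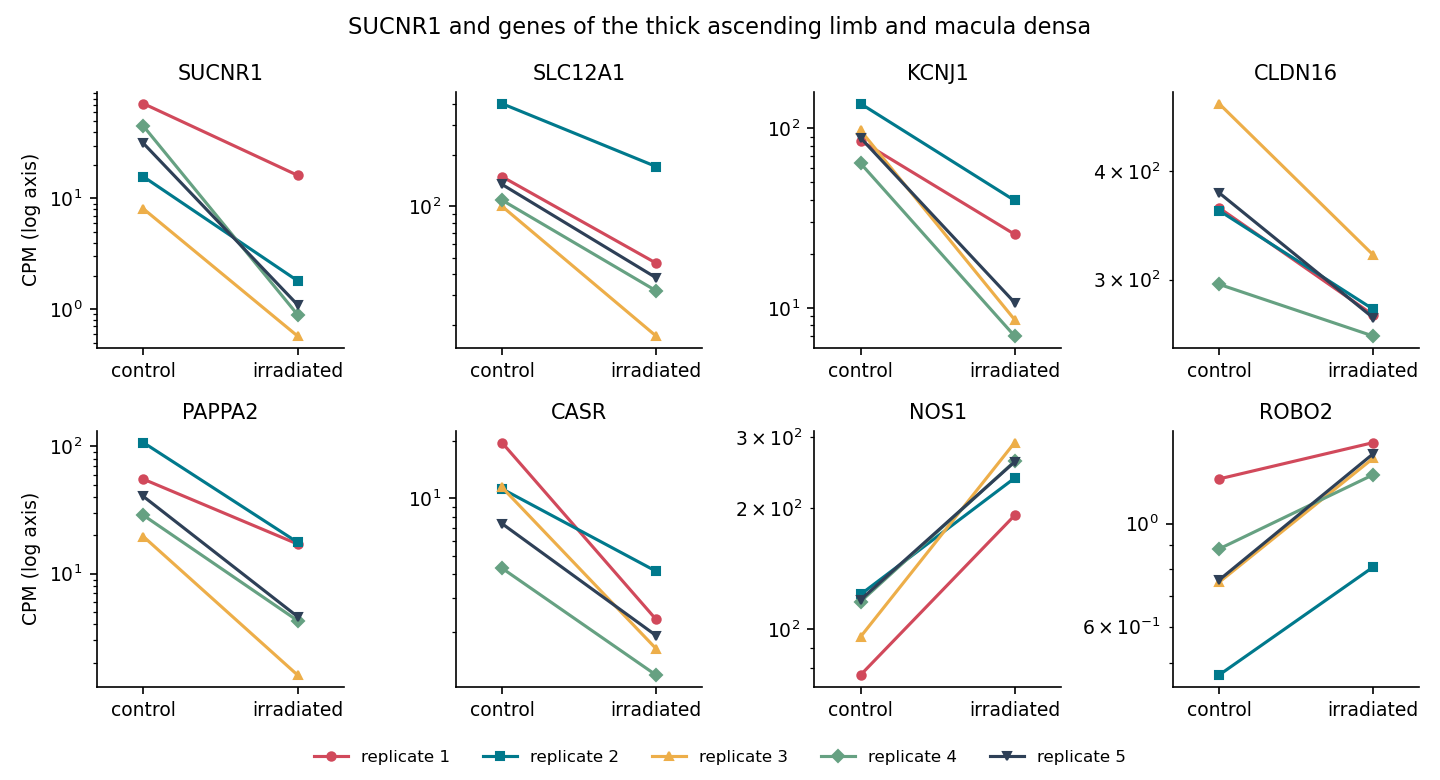
Level in CPM, on log axes, of SUCNR1, of 6 markers of the thick ascending limb and macula densa and of CASR in each control and irradiated sample, with lines joining samples of the same replicate number. SLC12A1, KCNJ1, CLDN16, PAPPA2 and CASR were called lower and NOS1 and ROBO2 higher, and replicate 1 (red circles) is the highest irradiated sample for SUCNR1 and ROBO2 only.

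Markers of other cell types were low, and some moved with irradiation. Of 7 distal tubule and collecting duct markers, 2 were tested and neither was called by edgeR or DESeq2 (1 was lower at an unadjusted p-value under 0.05). Over all tested genes 23.9% were called higher and 22.7% lower. The sum of the 7 markers was 1.78 to 2.62 CPM in control and 1.28 to 2.19 CPM in irradiated samples, and FOXI1 was at 0. Of 9 leukocyte markers, 2 were tested and CD14 was called higher, from a mean of 0.268 to 0.570 CPM, with C1QA and C1QB at 0 and sums of 0.743 to 1.04 and 1.002 to 1.49 CPM. Of 5 endothelial markers, 3 were tested and 2, PECAM1 and CDH5, called higher (66.7%, against 23.9% of all tested genes). CDH5 went from a mean of 0.596 to 3.31 CPM and was the more abundant in irradiated samples only. The endothelial sums were 1.29 to 2.40 CPM in control and 4.17 to 6.08 CPM in irradiated samples. Of 5 stromal markers, 2 were tested and both called higher (100%, against 23.9% of all tested genes). COL1A1 went from 18.8 to 32.2 CPM and DCN from 0.315 to 1.75 CPM, with sums of 15.8 to 23.4 and 28.4 to 40.0 CPM. The part of these markers in the SUCNR1 level was not tested.

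Genes whose pattern over the 10 samples was most like that of SUCNR1 were named by Pearson's r of log2 CPM, over 14373 tested genes with a mean of at least 1 CPM. The points share libraries and depth, and r is given as a description. The highest r was 0.974, for ENSG00000287558, a long non-coding RNA gene at chr6:160742509-160767490, followed by MAP1A, a microtubule-associated protein (0.968), AFF1, a transcription elongation factor (0.967), RSPH4A, a radial spoke protein of motile cilia (0.959), PMFBP1, a protein of the sperm flagellum (0.958), and CRB2, a cell polarity protein (0.958). Over all genes compared, 1% had an r above 0.889. The fitted log2 fold changes of the 6 genes, in this order, were -3.78, -1.85, -0.69, -1.29, -1.87 and -2.23. High r values thus went with fitted changes from -0.69 to -3.78. That these are smaller than the change of SUCNR1 follows from its choice as one of the largest falls. Without replicate 1, r for the 6 genes lay between 0.957 and 0.984. ENSG00000287558, PMFBP1 and CRB2 passed the limit of 1 CPM through the controls. Their means were 1.86, 1.61 and 2.88 CPM in control samples and 0.148, 0.449 and 0.641 CPM in irradiated samples. ENSG00000287558 held as few as 3 counts in a sample, so its r and fold change rest on irradiated values near 0.

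After each group's mean was taken out, the highest r values were 0.951 for CRB2, 0.947 for the long non-coding RNA gene ENSG00000258768, 0.935 for DNAAF8, a dynein arm assembly factor of motile cilia, 0.933 for ENSG00000287558, 0.911 for MAP1A and 0.910 for IQUB, another radial spoke protein. Over all genes compared, 1% had an r above 0.761 by this measure. Without replicate 1, r fell to 0.790 for CRB2, 0.761 for ENSG00000258768, 0.754 for IQUB and 0.693 for MAP1A, whereas DNAAF8 had 0.893 and ENSG00000287558 had 0.883. Of the segment genes described above, PAPPA2 had the highest r over the 10 samples (0.856, rank 267), followed by KCNJ1 (0.819, rank 493), CASR (0.751, rank 1075) and SLC12A1 (0.647, rank 2125). NOS1 had an r of -0.888, rank 14191 of 14373. These values hold the difference between the groups, for which SUCNR1 was chosen. With each group's mean taken out, r was 0.613 for PAPPA2, 0.390 for KCNJ1, 0.389 for ROBO2, 0.196 for SLC12A1, 0.195 for CASR, -0.473 for CLDN16 and -0.640 for NOS1, all below the level exceeded by 1% of genes.

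**Figure D5:**
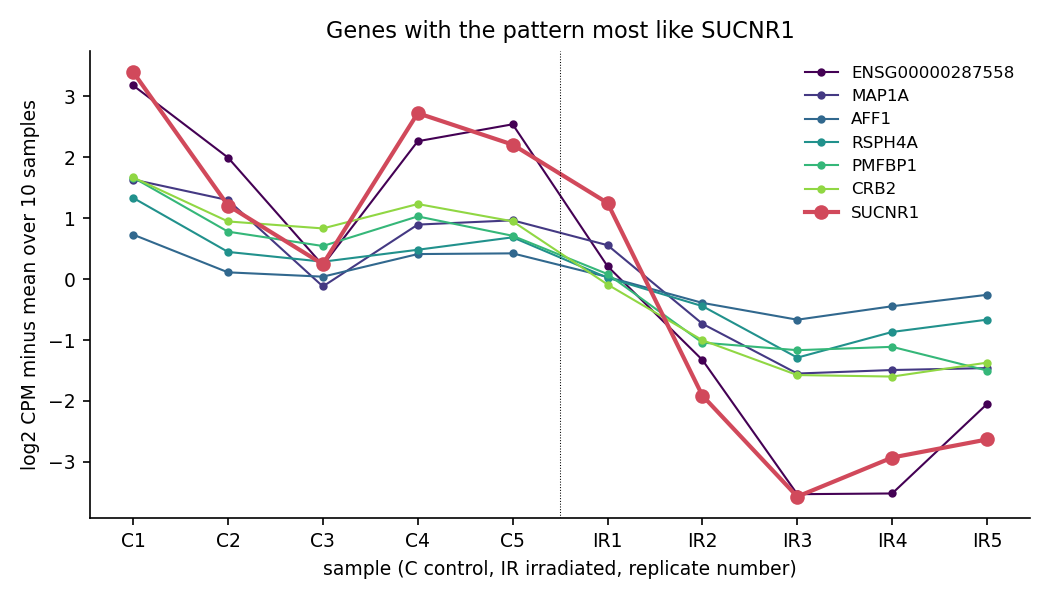
The log2 CPM, drawn without a prior count, minus its mean over the 10 samples for SUCNR1 (red) and the 6 genes with the highest Pearson's r with it, by sample from control replicates 1 to 5 to irradiated replicates 1 to 5. The lines follow a similar order of samples, with r between 0.958 and 0.974, and SUCNR1 and ENSG00000287558, with log2 fold changes of -3.81 and -3.78, span the widest ranges.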

How the data were processed

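Bulk RNA-seq counts of 10 samples of RPTEC/TERT1 cells were used, grouped by the treatment and replicate number of their titles. The cell line tag runs from TERT1 upwards in steps from sample to sample and was read as a single line. The authors trimmed adapters, aligned reads to GRCh38 with STAR, counted them on GENCODE genes and deposited whole-number counts per gene, without normalisation. The annotation release was not given in the sources used here, and 61369 of 61587 rows were placed with GENCODE v44. All 17 protein-coding genes wholly under exons of the opposite strand held 0 counts, against 10.7% of 12742 without overlap, and counts were treated as unstranded.

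Tests were run with edgeR 4.0.16 in R 4.3.3 (TMM, glmQLFit, glmQLFTest) on the 19006 genes with at least 200 counts, with replicate number as a block and Benjamini-Hochberg adjustment over all tested genes at a threshold of 0.05. Standard errors are the log2 fold change over the square root of F. Log2 CPM used a prior count of 2, except in the figure of the genes most like SUCNR1, which was drawn without one. TMM factors lay between 0.915 and 1.06. Deviations from the group means correlated within each replicate number (0.22 to 0.51) and between -0.35 and 0.32 across numbers, so the numbers were taken to pair the samples. The control and irradiated samples of a number were labelled as replicates only, and p-values measure the spread between these samples, which may be technical. No 2 replicates agreed within sampling noise (chi-square per gene from 7.68 to 187). Replicates 4 and 5 were the closest pair of both groups, at 13.1 in control and 7.68 in irradiated samples, against 35.4 to 187 for other pairs.

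Genes were named where a list member was called with more than a 2-fold change or was among the 3 with the highest level per kb, where a tested gene lay within 500000 bases, among the 6 most like SUCNR1 by each measure, and within 2 places of it in the order of falls. Results of some list members are not reported here. Members with smaller changes were picked after their values were seen. SUCNR1, the lists and the rules were chosen with earlier results of these data known. Alternatives were DESeq2 1.42.0, upper-quartile scaling, library size only, a minimum of 1 count, filterByExpr, no replicate block and each replicate left out. Promoter sequence came from RefSeq. Figures were drawn with matplotlib 3.10.9.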

Additional observations from a re-analysis of the deposited data

Results flagged for a closer look

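A sample was singled out where its gap to the nearest of the 5 samples of its group took most of the group's range, judged by Dixon's 95% critical value (0.710). Chance gives this in about 1 in 20 groups, and it was met in 24 of 212 groups of values over 106 named genes. Of these, 11 were control replicate 3 and 6 irradiated replicate 1. SUCNR1 was chosen with the level of replicate 1 in view, and genes named for likeness to it or for their place beside it in the order of falls carry that choice with them. Without these 13 genes, 18 of 186 groups of values met the criterion, 1 of them on irradiated replicate 1.

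SUCNR1 was at 16.2 CPM in irradiated replicate 1 against 0.572 to 1.81 in the others, which describes the choice of the gene. The same sample was high for MAP1A (2.89 CPM against 0.670 to 1.18), PMFBP1 (0.848 against 0.283 to 0.388), CRB2 (1.21 against 0.425 to 0.642) and ENSG00000258768 (1.85 against 1.17 to 1.35), which were named for likeness to SUCNR1, so that these values follow from that choice, and low for OXCT1 (15.0 against 16.6 to 17.2). Control replicate 1 was high for BBOX1 (102.4 CPM against 29.1 to 48.7) and low for FH (60.4 against 73.2 to 76.5).

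Control replicate 3, the lowest control for SUCNR1, was high for the p53 targets CDKN1A (207.6 CPM against 66.7 to 80.9), ZMAT3 (118.0 against 82.9 to 89.3) and GDF15 (418.2 against 90.6 to 157.4). It was also high for the TCA cycle genes IDH2 (196.7 CPM against 104.0 to 118.9), MDH2 (172.9 against 131.4 to 138.6), SDHB (67.6 against 49.8 to 52.5) and SDHD (38.1 against 24.3 to 28.0). Further high values in this sample were GRK3 (1.95 CPM against 0.615 to 0.917) and GPR17 (0.957 against 0.251 to 0.404), and low values were MED12L (1.14 against 2.10 to 2.37) and ADCY7 (6.72 against 11.4 to 12.5).

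SLC12A1 was high in replicate 2 of both groups, at 399.5 CPM in control (against 99.9 to 149.1) and 170.9 CPM in irradiated samples (against 17.3 to 46.4). DCN was high in irradiated replicate 2 (4.45 CPM against 0.454 to 1.61). In irradiated replicate 3, PAX8 was high (625.4 CPM against 582.7 to 591.8), as was ANPEP (462.9 against 214.1 to 271.2).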

How the results depend on the processing

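The log2 fold change of SUCNR1 stayed negative under every alternative run, from -4.37 to -3.38 with a replicate left out (-4.37 without replicate 1), from -3.92 to -3.82 with DESeq2, the other scalings and the other filters, and -3.05 without the replicate block. Without the block 3640 genes were called higher and 3366 lower, against 4550 and 4307 with it, and with a replicate left out 3557 to 4605 and 2943 to 4047. Of the calls, 51.4% were higher with TMM, 44.9% with upper-quartile scaling and 38.0% with library size only, which called 5894 genes lower.

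Of succinate metabolism genes, 14 were lower with library size only, in place of 9, and 8 to 11 with a replicate left out. Of related receptors, 1 was higher with DESeq2 and without the block and 3 with a minimum of 1 count or filterByExpr, in place of 2, and with a replicate left out 1 to 2 were higher and 1 to 3 lower. Of G protein signalling genes, 7 to 11 were lower with a replicate left out, with 7 without replicate 5. Of neighbouring genes, 3 were higher with a minimum of 1 count and 2 with filterByExpr, where more of them are tested, and 1 was lower without the block and 1 to 2 with a replicate left out. The causes were not tested. No value changed sign where it was called. Of the 105 named genes with a test, 10 lost their call without the block, 11 without replicate 5 and 8 each without replicates 1 and 4. Genes with totals near the limit of 200 counts are the ones most limited by depth.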

Other observations

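Among further genes downstream of Gi, adenylyl cyclases, which make cyclic AMP, moved in both directions. ADCY3 went from 21.1 ± 4.34 to 12.1 ± 1.67 CPM (SD, n = 5; log2 fold change -0.79, edgeR adjusted p = 8.7e-05) and ADCY6, the most abundant per kb, from 170.8 ± 22.5 to 140.0 ± 15.5 CPM (log2 fold change -0.28, edgeR adjusted p = 0.00147). ADCY5 had a log2 fold change of 0.73 (edgeR adjusted p = 0.0170) and ADCY7 of 0.55 (edgeR adjusted p = 0.0185), and both calls were lost without replicate 1, that of ADCY7 also without replicate 5. Of the exon sequence, 41.8% of ADCY7 and 24.4% of ADCY3 lies under exons of the opposite strand, and counts were treated as unstranded. Among regulators of G protein signalling, which shorten the active state of G protein subunits, RGS17 went from 2.76 ± 0.356 to 5.09 ± 0.771 CPM (log2 fold change 0.88, edgeR adjusted p = 0.000342) and RGS20 from 9.76 ± 1.44 to 15.7 ± 1.26 CPM (log2 fold change 0.70, edgeR adjusted p = 0.00037). RGS5 went from 0.671 ± 0.174 to 0.377 ± 0.102 CPM (log2 fold change -0.83, edgeR adjusted p = 0.00348). Of the 11 regulators tested, 2 were called higher (18.2%, against 23.9% of all tested genes) and 4 lower (36.4%, against 22.7%). Of the 5 adenylyl cyclases tested, 2 were called in each direction (40.0% each, against 23.9% of all tested genes higher and 22.7% lower).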
